A study of Mus musculus with 13 samples.

Results

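The voltage-gated calcium channel subunits described here are 9 genes, *Cacna1a*, *Cacna1b*, *Cacna1h*, *Cacna2d1*, *Cacna2d2*, *Cacna2d3*, *Cacnb1*, *Cacnb3* and *Cacnb4*, of the 50508 genes listed in the count files. They were taken by name, and their Unique Molecular Identifier (UMI) counts were read in single dorsal root ganglion (DRG) neurons that the study kept after quality control, 586 of 1248 sorted wells. Adult (older than p56), p12 and p0 mice carried *PV:Cre+/-;Rx3:Flp+/-;Ai65+/-* (hereafter *PVRx3:tdT*), so that the tdTomato label needs past activity of *PV* together with *Rx3*. Embryos of e14.5 carried *TrkC:tdTomato*, a reporter that also labels other neurons with the neurotrophin receptor TrkC, so stage and reporter cannot be told apart between e14.5 and p0. The e14.5 neurons (169) came from 2 plates, those of p0 (55) from 2, those of p12 (154) from 4 and the adult neurons (208) from 5, and a plate is called a replicate. The labels give 6 adult, 4 p12, 6 p0 and 2 e14.5 animals of either sex and do not tie them to plates, so p-values measure the spread between plates.

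High voltage-activated calcium channels are built from a pore-forming alpha1 subunit, an intracellular beta subunit and an extracellular alpha2delta subunit. *Cacna1a* and *Cacna1b* encode the pores of the P/Q-type (Cav2.1) and N-type (Cav2.2) channels that admit calcium at presynaptic terminals, and *Cacna1h* the pore of the low voltage-activated T-type channel Cav3.2. Beta subunits bind the pore and promote its delivery to the membrane, alpha2delta subunits raise the number of channels at the surface and at release sites, and *Cacna2d1* and *Cacna2d2* encode the alpha2delta proteins that bind gabapentin. Muscle proprioceptors are DRG neurons whose central terminals excite spinal neurons, among them motor neurons.

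Neurons held a mean of 11174 UMIs at e14.5, 41594 at p0, 30623 at p12 and 44511 in adults, and the summed UMIs of a plate were between 680212 and 2387288. Levels are CPM (the UMIs of a gene over all UMIs of its neuron, scaled to a total of 1000000). They are means of the neurons on a plate, summarised as mean ± SD of the plates, and they are not comparable between genes. The 5 proprioceptor markers checked (*Pvalb*, *Runx3*, *Ntrk3*, *Etv1* and *Whrn*) had UMIs at every stage. *Whrn* had only 2 UMIs at e14.5 (1.23 CPM), against means of 27.3, 56.9 and 101 CPM at p0, p12 and adult. The 8 glial markers summed to between 4.05 and 22.6 CPM on the e14.5 plates, where *Sox10*, *Kcnj10* and *Cdh19* were among the markers at 0, against between 166 and 814 CPM on the later plates, where all 8 had UMIs. The 9 markers of other sensory neurons summed to between 28.3 and 226 CPM over all plates, with *Scn10a* at 0 at e14.5, p0 and in the adult and *Mrgprd* at 0 at e14.5, p0 and p12. Of these 9, *Maf* had means of 113, 51.1, 75.3 and 118 CPM at e14.5, p0, p12 and adult, and *Ret* 7.44, 1.27, 15.9 and 38.9 CPM. The part of such RNA in the results was not tested. The p12 plates fall into pairs that share no cluster, replicates 1 and 2 (12 and 13 neurons) and replicates 3 and 4 (67 and 62 neurons), and adult clusters 2 and 4 were found on adult replicates 1 and 2, so both pairs are reported apart where a call rests on them.

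Most calls among the subunits fell between p0 and p12. *Cacna2d1* and *Cacnb3* fell, *Cacna2d3* and *Cacnb4* rose, and *Cacna1h*, with 9 UMIs at p0, had none at p12. These 5 were called among the 8 members that passed the filter on low counts (adjusted p under 0.05, edgeR quasi-likelihood F-test on summed UMIs per plate, Benjamini-Hochberg over all genes tested), against 18.1% of the 11939 genes tested. *Cacna1h* had 4 and 5 UMIs on the p0 plates and 44 and 37 on the e14.5 plates, so its place among the 8 rests on e14.5. *Cacna2d2* did not pass the filter in the stage comparison. Between e14.5 and p0, 1 of the 8, *Cacna1h*, was called, against 27.8% of all genes, and between p12 and adult 1 of the 8, *Cacna1b*, against 14.1% of all genes. The 1 of 8 called in each of these steps is thus no larger a share than among all genes. The median log2 difference of the 8 members was -0.52 from p0 to p12 (-0.52 also with *Cacna1h* at the fold given below). It was -0.34 from e14.5 to p0 and -0.0013 from p12 to adult. The medians of all genes were 0.02, 0.01 and 0.04 in the same order. The adjacent steps share the p0 and the p12 plates.

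**Figure D1:**
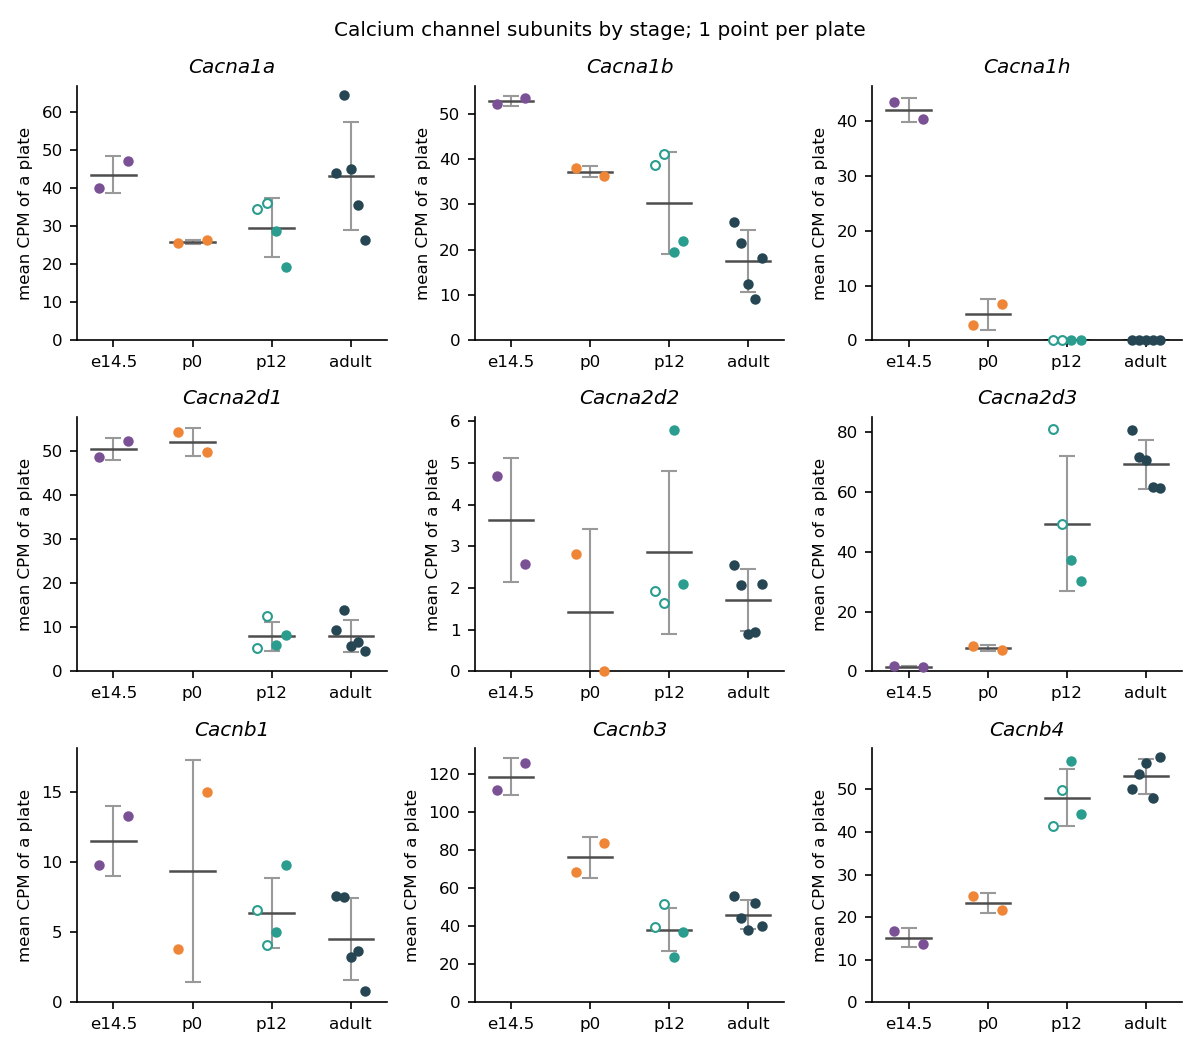
Mean CPM of each member on each plate (y axis, linear) at e14.5, p0, p12 and in the adult (x axis), with 1 point per plate, the line at the mean and bars of 1 SD. Open points are p12 replicates 1 and 2. *Cacna2d1* drops and *Cacna2d3* climbs between p0 and p12 with no overlap of plates, and *Cacna1h* is at 0 on all p12 and adult plates.

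Between p0 and p12 *Cacna2d1* fell while *Cacna2d3* rose. *Cacna2d1* (ENSMUSG00000040118, GRCm38 chr5:15934691-16374511, plus strand) encodes alpha2delta-1. Its plates had mean levels of 48.7 and 52.1 CPM at e14.5, 54.2 and 49.7 CPM at p0, 5.33, 12.6, 5.92 and 8.14 CPM at p12, and 9.35, 13.8, 5.66, 6.73 and 4.60 CPM in the adult. The plates of e14.5 and p0 overlap, and every p0 plate lies above every p12 plate. The fitted difference from p0 to p12 was -2.76 ± 0.34 (log2, SE, adjusted p = 9.0e-05), and *Cacna2d1* was called under all 23 alternatives, with adjusted p between 6.4e-11 and 0.0026. Neither the step before (0.06 ± 0.35, adjusted p = 0.93) nor the step after (-0.27 ± 0.34, adjusted p = 0.65) was called.

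*Cacna2d3* (ENSMUSG00000021991, chr14:28904943-29721864, minus strand) encodes alpha2delta-3. It had 1.65 and 1.62 CPM at e14.5, from 4 UMIs in all, and 8.46 and 7.09 CPM at p0. The p12 plates had 81.2, 49.3, 37.2 and 30.2 CPM and the adult plates 80.9, 71.7, 70.8, 61.7 and 61.3 CPM. All p12 plates lie above both p0 plates, p12 replicate 1 reaches the highest adult plate, and the other 3 lie below every adult plate. From p12 to adult the difference was 0.53 ± 0.19 (log2, SE, adjusted p = 0.078), and it was 0.84 ± 0.19 and called with p12 replicates 3 and 4 only (adjusted p = 0.0055), 0.23 ± 0.20 with replicates 1 and 2 only (adjusted p = 0.57). It was also called without p12 replicate 1 (adjusted p = 0.0085) and in thinned neurons (adjusted p = 0.014). From p0 to p12 the difference was 2.94 ± 0.33 (log2, SE, adjusted p = 4.0e-05). It was 3.24 ± 0.31 with p12 replicates 1 and 2 only and 2.63 ± 0.28 with replicates 3 and 4 only, and was no longer called in neurons thinned to 7000 UMIs each (1.53, adjusted p = 0.14). From e14.5 to p0 it was 1.72 ± 0.59 with an adjusted p of 0.0500095, just over the threshold. It was called in 8 of 23 alternatives. Of these, just e14.5 clusters 1 and 2 only (adjusted p = 0.0042) changed the neurons compared, all 4 of the e14.5 UMIs lying in cluster 3. The others left out adult or p12 plates, each p12 pair alone included (adjusted p = 0.042 and 0.045). Those plates are not in this comparison and enter only through the shared fit.

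The 250 bases before the start sites of *Cacna2d1* and *Cacna2d3* are shown because these members moved in opposite directions between p0 and p12. The bases come from RefSeq (GRCm38.p6), are written 5′ to 3′ along the gene, and lie at chr5:15934441-15934690 (plus strand) and chr14:29721865-29722114 (minus strand). Capitals mark matches on either strand to the GC box GGGCGG and to the E-box CANNTG.
*Cacna2d1*: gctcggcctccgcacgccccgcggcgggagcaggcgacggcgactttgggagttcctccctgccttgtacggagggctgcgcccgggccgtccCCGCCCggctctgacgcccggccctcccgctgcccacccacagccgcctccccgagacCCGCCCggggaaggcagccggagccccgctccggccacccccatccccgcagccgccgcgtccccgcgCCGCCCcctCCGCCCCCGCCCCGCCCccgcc
*Cacna2d3*: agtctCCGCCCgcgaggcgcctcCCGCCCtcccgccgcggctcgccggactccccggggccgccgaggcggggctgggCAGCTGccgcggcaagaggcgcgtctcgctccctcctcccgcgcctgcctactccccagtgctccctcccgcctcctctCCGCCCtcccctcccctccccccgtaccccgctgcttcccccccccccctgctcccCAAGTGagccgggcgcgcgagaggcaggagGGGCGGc
Both windows are rich in G and C, 82.4% and 80.0% against a median of 52.4% over 32851 promoters of the same length, whose 95th percentile is 73.6%. The *Cacna2d1* window holds 6 GC boxes and no E-box, and the *Cacna2d3* window 4 GC boxes and 2 E-boxes. A GC box occurs in 32.7% and an E-box in 66.2% of all these windows. The Runx motif TGTGGT (14% of windows), the cAMP response element TGACGTCA (1.55%) and the TATA motif TATAAA (12.4%) have no match in either, which says only that these letters are not in these windows.

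The same shift was read in single neurons. At p0, 34 of 55 neurons had UMIs of *Cacna2d1* alone, 2 of *Cacna2d3* alone, 13 of both and 6 of neither. In the adult, 8 of 208 neurons had *Cacna2d1* alone, 153 *Cacna2d3* alone, 24 both and 23 neither. Thinned to 7000 UMIs per neuron, 31.8% of the e14.5 neurons and 29.1% of the p0 neurons had *Cacna2d1* alone, against 2.63% at p12 and 1.92% in the adult. The thinned share with *Cacna2d3* alone was 1.99% at e14.5, 7.27% at p0, 17.1% at p12 and 40.4% in the adult.

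**Figure D2:**
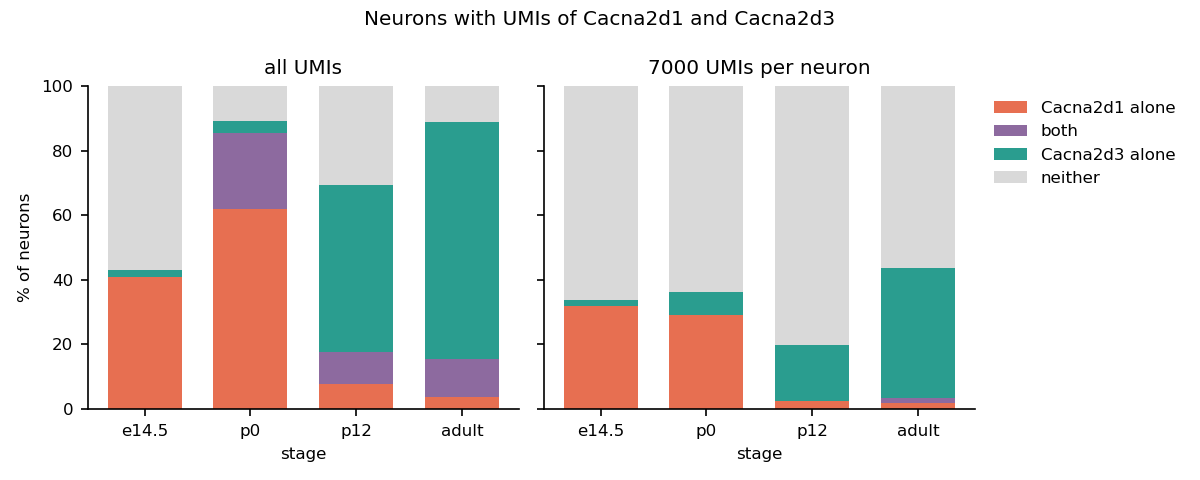
Percent of kept neurons (y axis) with UMIs of *Cacna2d1* alone, of both genes, of *Cacna2d3* alone or of neither at each stage (x axis), with all UMIs (left) and with 7000 UMIs per neuron (right). *Cacna2d1* alone falls from 29.1% at p0 to 2.63% at p12 in the thinned neurons, and *Cacna2d3* alone reaches 40.4% in the adult.

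*Cacna2d2* (ENSMUSG00000010066, chr9:107399612-107529343) encodes alpha2delta-2 and was sparse at every stage, with 8 UMIs at e14.5, 4 at p0, 16 at p12 and 12 in the adult. Its plate means ran from 0 to 5.79 CPM, and the plates of adjacent stages overlap. Of the UMIs of *Cacna2d1*, *Cacna2d2* and *Cacna2d3* together, *Cacna2d1* held 88.3% ± 3.2 at e14.5 and 85.7% ± 3.9 at p0 (SD, n = 2 plates each), 11.9% ± 4.9 at p12 (n = 4) and 6.53% ± 2.4 in the adult (n = 5). *Cacna2d3* held 3.89% ± 0.16, 12.0% ± 0.68, 83.2% ± 6.7 and 91.9% ± 2.2 at the same stages. Between adult and p12 the make-up was tested by exact two-sided permutation of plates, which cannot go below p = 0.016. In this permutation test the share of *Cacna2d3* was 8.72 percentage points higher in the adult (p = 0.063, adjusted over the 3 genes p = 0.095), and the share of *Cacna2d1* differed by -5.35 points (p = 0.079, adjusted p = 0.095). The *Cacna2d2* share differed by -3.37 points (permutation p = 0.095, adjusted p = 0.095), and none of the 3 passed. Without p12 replicate 1, the plate with the highest *Cacna2d3* share of its stage (93.2%), all 3 differences passed the threshold (adjusted p = 0.036, the smallest the test allows).

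**Figure D3:**
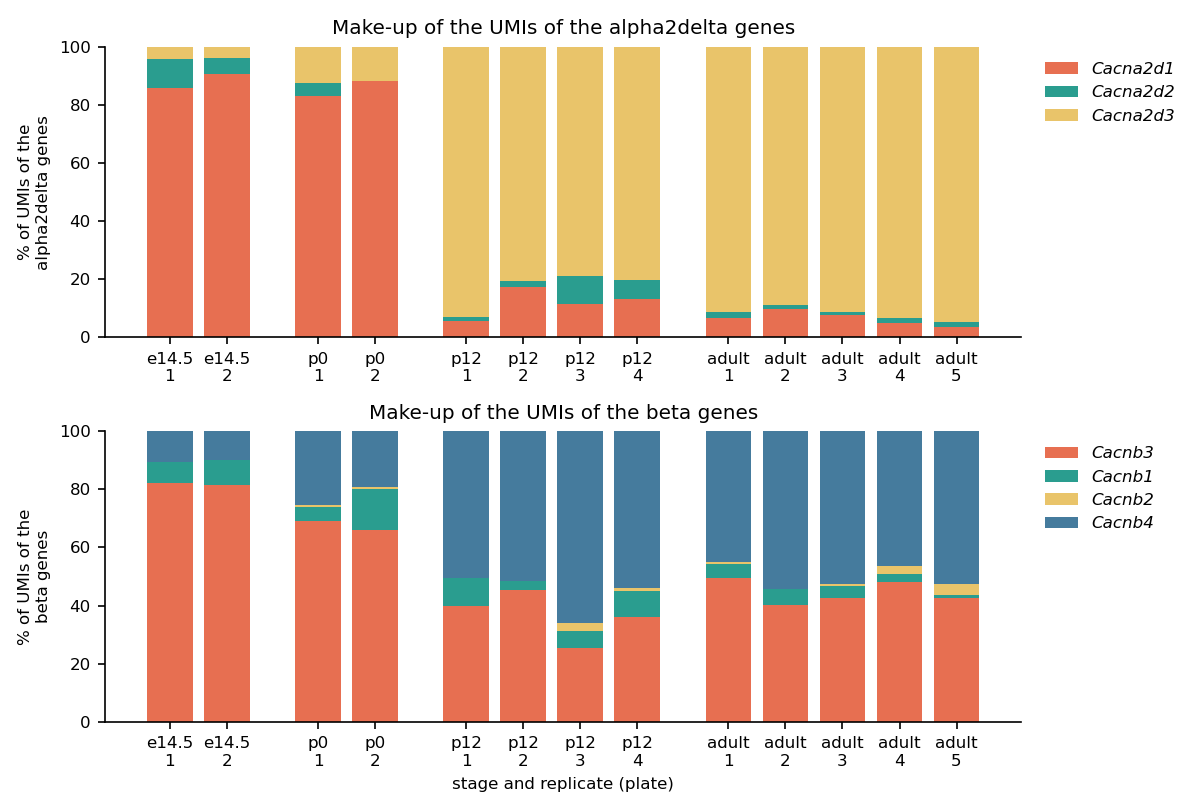
Make-up of the UMIs of the 3 alpha2delta genes (top) and of the 4 beta genes (bottom), as percent of their summed UMIs on each plate (y axis), by stage and replicate (x axis). *Cacna2d1* holds at least 83.0% on the e14.5 and p0 plates and at most 17.4% on the later plates, and *Cacnb4* rises from between 10.0% and 25.4% to between 44.9% and 66.1%.

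The beta genes shifted in the same interval from *Cacnb3* toward *Cacnb4*. At p12 *Cacnb3* still held more UMIs than *Cacnb4* in cluster 1 (45 against 38) and cluster 3 (45 against 29). *Cacnb4* held more in p12 clusters 2 (43 against 15), 4 (122 against 35) and 5 (23 against 9). *Cacnb3* (ENSMUSG00000003352, chr15:98630840-98644529) encodes beta3 and had 111 and 125 CPM at e14.5, 68.6 and 83.5 CPM at p0, 39.6, 51.7, 24.0 and 37.1 CPM at p12, and 55.6, 44.5, 38.0, 52.2 and 40.1 CPM in the adult. The plates of e14.5, p0 and p12 do not overlap, and those of p12 and adult do. It fell from p0 to p12 (-1.02 ± 0.24, log2, SE, adjusted p = 0.0090), and the difference stayed between -1.19 and -0.84 over all 23 alternatives, while the call was lost without p0 replicate 2 (adjusted p = 0.12) and in thinned neurons (adjusted p = 0.061). From e14.5 to p0 its difference was -0.73 ± 0.27 (adjusted p = 0.059), and 8 of 23 alternatives, DESeq2 among them (adjusted p = 0.0495), called it. Some of these only left out adult or p12 plates, which are not in this comparison.

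*Cacnb4* (ENSMUSG00000017412, chr2:52428320-52676831) encodes beta4. Its plates had 16.7 and 13.7 CPM at e14.5, 25.1 and 21.7 CPM at p0, 41.3, 49.9, 56.5 and 44.2 CPM at p12, and 50.1, 53.5, 56.3, 47.8 and 57.5 CPM in the adult. The first 3 stages do not overlap, while the adult plates lie within or next to the range at p12. *Cacnb4* rose from p0 to p12 by 1.25 ± 0.22 (log2, SE, adjusted p = 0.0012), and all 23 alternatives called it (adjusted p up to 0.048). Its exons share 1433 bases with the non-coding gene *A430018G15Rik* on the opposite strand, and whether the counting used strand is not given in the sources used here. Opposite-strand exon overlaps of *Cacna1a* (435 bases, *Gm16183*), *Cacna1h* (158, *Tpsg1*), *Cacna2d2* (82, *Gm17141*) and *Cacnb1* (80, *Gm11629*) are shorter, and the other members have none.

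*Cacnb1* (ENSMUSG00000020882, chr11:98001508-98023034), which encodes beta1, was low, with 22 UMIs at e14.5, 22 at p0, 30 at p12 and 39 in the adult. Its plate means ran between 0.789 and 15.0 CPM and overlapped between every pair of adjacent stages, and no step was called (adjusted p between 0.41 and 0.83). As a share of the UMIs of *Cacnb1* to *Cacnb4*, *Cacnb3* held 81.8% ± 0.47 at e14.5, 67.7% ± 2.2 at p0, 36.7% ± 8.5 at p12 and 44.6% ± 4.0 in the adult, and *Cacnb4* held 10.2% ± 0.32, 22.3% ± 4.4, 55.6% ± 7.2 and 50.1% ± 4.2. Between adult and p12 the shares differed by 7.89 points for *Cacnb3* (p = 0.11) and by -5.53 points for *Cacnb4* (p = 0.27) in the exact permutation test, with adjusted p of 0.22 and 0.36 over the 4 beta genes.

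**Figure D4:**
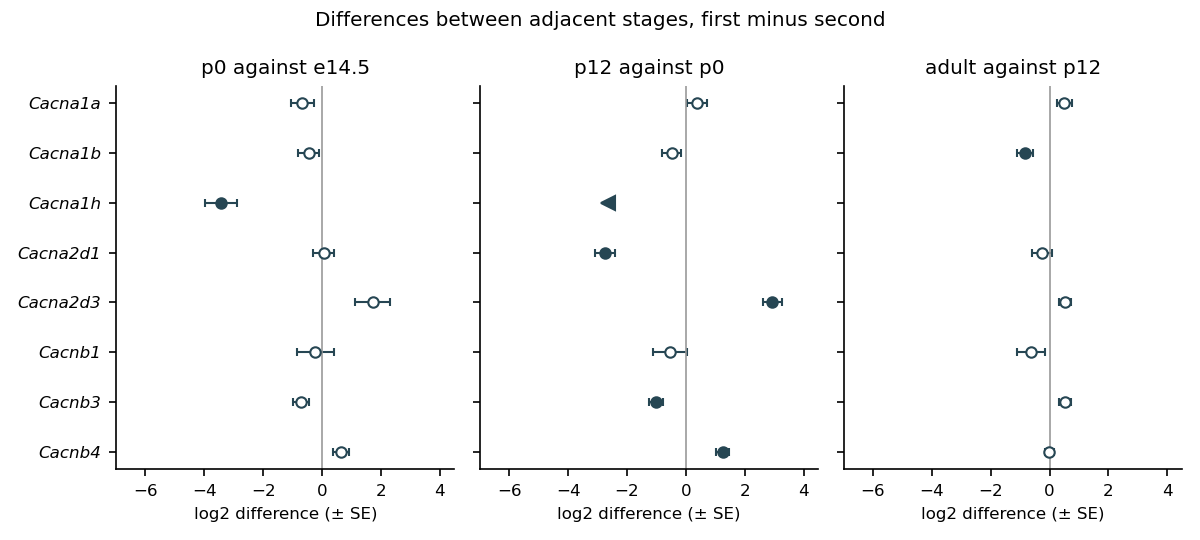
Fitted log2 differences (x axis, ± SE) of the 8 tested members (y axis) between adjacent stages, with filled points for adjusted p under 0.05. The arrowhead for *Cacna1h* at p12 is the smallest fall allowed by 0 UMIs (6.18-fold), and *Cacna1h* is not drawn between p12 and adult, where both were at 0. Of the called points, 5 lie in the middle panel.

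Among the pores, *Cacna1h* (ENSMUSG00000024112, chr17:25374285-25433783) fell between e14.5 and p0 and was at 0 later. It had 43.6 and 40.5 CPM on the e14.5 plates, where 55 of 169 neurons had a UMI, and 2.78 and 6.71 CPM on the p0 plates, where 9 of 55 neurons had 1 UMI each. No UMI was counted in 154 p12 and 208 adult neurons, which allows shares of up to 1.95% and 1.44% of neurons with a UMI, for counting error only and with no account of the spread between plates. From e14.5 to p0 it fell by 3.43 ± 0.55 (log2, SE, adjusted p = 0.0034), and this call held under all 23 alternatives, e14.5 clusters 1 and 2 only included, with adjusted p up to 0.046. *Cacna1h* passed the filter on low counts through its e14.5 plates, the side of this comparison on which it is high. The fall from p0 to p12 was called as well (edgeR, adjusted p = 0.014). With 3 UMIs in place of 0, its summed level was 6.18-fold lower over the 4 p12 plates than at p0. Over the 5 adult plates it was 12.1-fold lower. The counting error of the 9 UMIs at p0 is left out, so these are not lower bounds. The later step rests on 9 UMIs at p0: it was not called without p0 replicate 2 (adjusted p = 0.081), with p12 replicates 1 and 2 only (0.052) or in thinned neurons (0.39).

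*Cacna1b* (ENSMUSG00000004113, chr2:24603887-24763152) had lower levels at later stages. Its plates had 52.0 and 53.5 CPM at e14.5, 38.0 and 36.3 CPM at p0, 38.6, 41.1, 19.4 and 22.0 CPM at p12, and 26.1, 21.4, 12.4, 9.17 and 18.2 CPM in the adult. The p12 replicates 1 and 2 lie with the p0 plates and replicates 3 and 4 with the adult plates. It was not called from e14.5 to p0 (-0.46 ± 0.36, log2, SE, adjusted p = 0.37) or from p0 to p12 (-0.48 ± 0.32, adjusted p = 0.32). From p12 to adult it fell by 0.84 ± 0.26 (log2, SE), but the call (adjusted p = 0.046) was lost in 13 of 23 alternatives, p12 replicates 3 and 4 only among them (-0.61, adjusted p = 0.21). Over the whole span from p0 to adult, where the plates do not overlap, it fell by 1.33 ± 0.30 (adjusted p = 0.0037) and kept the call in 22 of 23 alternatives.

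*Cacna1a* (ENSMUSG00000034656, chr8:84388440-84640246) had 40.2 and 47.1 CPM at e14.5, 25.6 and 26.3 CPM at p0, 34.5, 36.3, 28.8 and 19.3 CPM at p12, and 44.2, 64.7, 45.2, 35.6 and 26.5 CPM in the adult. No adjacent step was called (adjusted p between 0.18 and 0.48). From p0 to adult it was 0.89 ± 0.33 higher (log2, SE, adjusted p = 0.046), and 11 of 23 alternatives lost this call. In the adult, 81 of 208 neurons had UMIs of *Cacna1a* alone, 18 of *Cacna1b* alone and 75 of both, whereas at e14.5 the numbers were 33, 44 and 23 of 169 neurons. In neurons thinned to the same depth the share with *Cacna1b* alone was 21.2% at e14.5 and 7.21% in the adult, and that with *Cacna1a* alone 14.6% and 25.5%.

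The comparison of adult with p0, the outer stages with the *PVRx3:tdT* reporter, was added after the adjacent steps had been seen. In it 6 of the 8 tested members, *Cacna1h* with its 9 UMIs at p0 among them, were called, against 34.4% of all 11939 genes. *Cacna2d3* (3.47 ± 0.33, log2, SE), *Cacnb4* (1.25 ± 0.21) and *Cacna1a* rose, and *Cacna2d1* (-3.02 ± 0.31), *Cacna1b* and *Cacna1h* fell. *Cacnb3*, although called from p0 to p12, was not called over this span (-0.51 ± 0.23, adjusted p = 0.095), nor was *Cacnb1* (-1.17 ± 0.55, adjusted p = 0.11). *Cacnb3* passed in thinned neurons (adjusted p = 0.045) and without adult replicate 1 (0.049). *Cacnb1* passed with all wells (0.0028) and without p0 replicate 1 (log2 difference of -1.92, 0.034), and its log2 difference was 0.05 without p0 replicate 2 (0.97).

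The other 18 genes of the family gave 8 that could be tested. From p0 to p12, 2 rose and 1 fell, against 18.1% of all genes called in this step. *Cacng2*, which encodes the AMPA receptor auxiliary protein stargazin, was 3.05 ± 0.67 (log2, SE) higher (adjusted p = 0.0058), with 3.45 ± 1.5 CPM at p0 (SD, n = 2 plates) and p12 plates spread from 10.8 to 66.6 CPM, and *Cacng5*, a related transmembrane AMPA receptor regulatory protein, 1.71 ± 0.21 higher (adjusted p = 9.5e-05). *Cachd1*, an alpha2delta-like protein, fell by 1.16 ± 0.32 (adjusted p = 0.020). From e14.5 to p0 2 of the 8 were called, against 27.8% of all genes, *Cacna1e*, the R-type pore, which fell by 3.24 ± 0.69 and *Cacng4*, which fell by 4.02 ± 0.77. From p12 to adult 2 of the 8, *Cacna1c*, an L-type pore, and *Cacng5*, fell, against 14.1% of all genes. *Cacna1e* had 32 UMIs at e14.5 and 6 at all later stages together, and *Cacna1i*, a T-type pore, 17 UMIs at p0 and 5 in all other stages.

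Of 14 direct regulators 11 were tested. *Cabp1*, a calcium-binding protein that acts on Cav channels in place of calmodulin, had 45.0 ± 0.38, 86.9 ± 8.1, 301 ± 51 and 565 ± 36.1 CPM at e14.5, p0, p12 and adult (SD over 2, 2, 4 and 5 plates) and rose at every step (adjusted p of 0.0055, 8.7e-06 and 0.00048). From p0 to p12 *Calm3* and *Stac2* also rose and *Stac*, an adaptor that slows the inactivation of L-type channels, fell by 3.17 ± 0.50 (log2, SE, adjusted p = 0.00053). In all, 5 of the 11 were called, against 18.1% of all genes. From e14.5 to p0 *Calm3* and *Cabp1* were called (27.8% of all genes), and from p12 to adult *Stac*, *Stac2* and *Cabp1* (14.1% of all genes). *Stac* had 60 UMIs at e14.5, 59 at p0, 12 at p12 and 3 in the adult.

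Across adult clusters *Cacnb3* was called for any difference (adjusted p = 0.041), a call that 7 of 13 alternatives lost. *Cacna2d3* missed the threshold (adjusted p = 0.061) and passed it with the plate as a block (0.0082) or without the filter on low counts (0.024). The study related cluster 1 to group Ia muscle spindle afferents, cluster 5 to group Ib Golgi tendon organ afferents and clusters 2 to 4 tentatively to group II spindle afferents. Because the clusters had been found in these same neurons, the tests tell how far plates repeat a difference and are no independent evidence of it. Of the members, *Cacna1a*, *Cacna2d3*, *Cacnb3* and *Cacnb4* passed the filter, and 1 of these 4 was called for any difference across clusters, against 9.67% of 7370 genes. The same 1 of 4 was called for clusters 1 and 5 against clusters 2 to 4, against 5.63% of all genes.

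*Cacnb3* had 66.8, 44.0, 34.8, 68.6 and 60.6 CPM in cluster 1 on adult replicates 1 to 5, and 80.7, 38.4, 23.9, 51.9 and 30.5 CPM in cluster 5. In cluster 2 it had 0 and 14.9 CPM on replicates 1 and 2, in cluster 4 53.6 and 19.9 CPM on the same plates, and in cluster 3 31.3, 14.7, 21.9 and 38.6 CPM on replicates 2 to 5. Among the numbered clusters the highest plates lie in clusters 1 and 5, the mean is lowest in cluster 2, and clusters 2 and 3 overlap, as do clusters 1, 3, 4 and 5. Clusters 1 and 5 were higher than clusters 2 to 4 by 1.39 ± 0.34 (log2, SE, adjusted p = 0.018), and with the plate as a block by 1.44 ± 0.27 (adjusted p = 0.00054). The difference kept its size but not its call within adult replicates 1 and 2 (1.30, adjusted p = 0.097) and within replicates 3 to 5, where only cluster 3 of clusters 2 to 4 is present (1.19, adjusted p = 0.13), and the call was also lost without adult replicate 1, 2 or 4. With a plate left out the difference ran from 1.30 to 3.04, the latter without replicate 2, where the remaining sum of cluster 2 held 0 UMIs. UMIs of *Cacnb3* were found in 48 of 51 neurons of cluster 1, 23 of 31 of cluster 5 and 38 of 84 of clusters 2 to 4, whose median depths were 59922, 57694 and between 20138 and 35599 UMIs. Thinned to 7000 UMIs, the mean shares over plates were 31.1% and 30.0% in clusters 1 and 5, 13.6% in cluster 2, 6.88% in cluster 3 and 29.5% in cluster 4, so cluster 4 was close to clusters 1 and 5 at equal depth. The glial markers summed to between 80.3 and 681 CPM on the plates of clusters 1 and 5 and between 208 and 1074 CPM on those of clusters 2 to 4. The markers of other sensory neurons summed to 263 to 521 CPM in cluster 1, 101 to 255 CPM in cluster 5 and 38.9 to 193 CPM in clusters 2 to 4. The part of glial or other sensory neuron RNA in this difference was not tested.

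*Cacna2d3* was not called across clusters with the filter and no plate block. It had a mean of 104 ± 25.0 CPM in cluster 1, 75.4 ± 27.9 in cluster 5 (SD, n = 5 plates each), 83.3 ± 19.2 in cluster 2 (n = 2), 67.9 ± 23.1 in cluster 3 (n = 4) and 33.7 ± 8.5 in cluster 4 (n = 2). Clusters 1 and 5 were 0.58 ± 0.19 (log2, SE) above clusters 2 to 4 (adjusted p = 0.074), and with the plate as a block the difference of 0.66 ± 0.17 passed (adjusted p = 0.012). All 51 neurons of cluster 1, the deepest cluster (median of 59922 UMIs), had a UMI of *Cacna2d3*, and 30 of 31 of cluster 5 did. In clusters 2, 3 and 4 the counts were 14 of 15, 36 of 41 and 13 of 28 neurons. In thinned neurons the mean shares over plates were 57.1%, 47.7%, 45.3%, 13.5% and 35.8% in clusters 1 to 5. Of the other family genes 3 were tested, and 2 were higher in clusters 1 and 5 than in clusters 2 to 4, against 5.63% of all genes called, *Cachd1* by 2.34 ± 0.30 (log2, SE, adjusted p = 4.4e-05) and *Cacng2* by 1.55 ± 0.23 (adjusted p = 0.00025).

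*Cacnb4* was spread over all clusters, with means between 34.9 ± 5.1 CPM in cluster 4 and 96.0 ± 54.7 CPM in cluster 3, where replicate 2 alone (2 neurons) had 175 CPM, and was not called (adjusted p = 0.26). *Cacna1a* had its highest mean in cluster 2 (81.8 ± 9.6 CPM, n = 2) and its lowest in cluster 4 (31.4 ± 3.3 CPM, n = 2) on the same plates, and was not called either (adjusted p = 0.36). Cluster 1 against cluster 5 gave 0 of 4 members by edgeR and by DESeq2, against 4.76% of all genes called. At an unadjusted p under 0.05 there were 0 of the 4, where edgeR had 1047 of 7370 genes. Cluster 4 against cluster 2 also gave 0 of 4 by both tools, against 0.136% of all genes called. At an unadjusted p under 0.05 were 2, *Cacnb3* (2.22 ± 0.85, log2, SE) and *Cacna2d3* (-1.02 ± 0.42), where edgeR had 532 of 7370 genes. The *Cacnb3* value rests on 4 UMIs in cluster 2 and was 1.04 without adult replicate 1 and 7.50 without replicate 2, where cluster 2 held 0 UMIs. The fitted differences between clusters 1 and 5 lay between -0.12 ± 0.29 for *Cacna1a* and 0.39 ± 0.21 for *Cacna2d3*, none past the threshold.

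**Figure D5:**
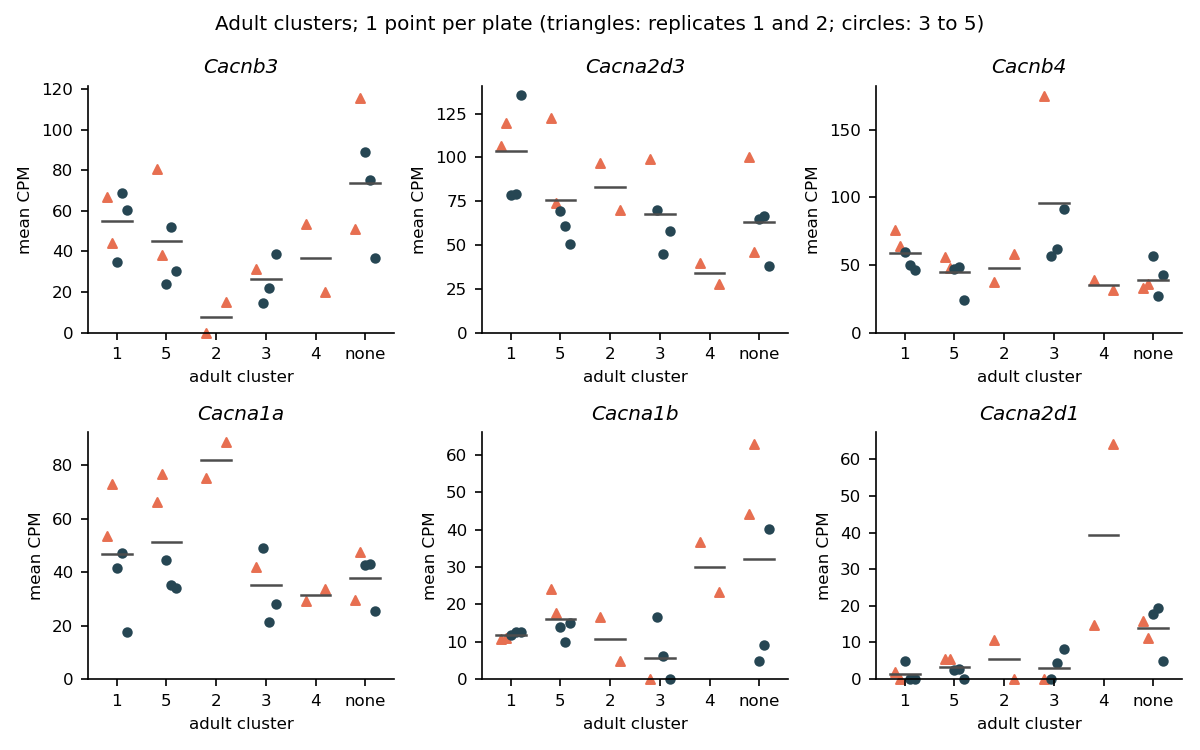
Mean CPM (y axis) of 6 members in the neurons of each adult cluster (x axis, "none" for the 42 neurons without a numbered cluster), with 1 point per plate of at least 2 neurons and the line at the mean. Triangles are replicates 1 and 2 and circles replicates 3 to 5. *Cacnb3* is lowest in cluster 2 (0 and 14.9 CPM), and *Cacna2d1* is highest in cluster 4 on replicate 2 (64.2 CPM, from 2 of 9 neurons).

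The plates of the adult also differed from each other. Within clusters 1 and 5, *Cacna1a* was 0.74 ± 0.21 (log2, SE) higher on replicates 1 and 2 than on replicates 3 to 5 (adjusted p = 0.015). The sums of clusters 1 and 5 on a plate were taken as independent, so each plate counts more than once in this p. *Cacna1a* was the 1 of 4 members called, against 23.3% of 6061 genes, a share close to that of all genes. In cluster 5 it had 66.0 and 76.5 CPM on replicates 1 and 2 and 44.6, 35.3 and 34.2 CPM on replicates 3 to 5. Cluster 2, with the highest mean of *Cacna1a*, was present on replicates 1 and 2 alone. Without replicate 2 the plate difference was not called (adjusted p = 0.20).

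Members that did not pass the filter of the cluster test are given as levels. *Cacna1b* had 11.7 ± 0.84 CPM in cluster 1, with plates between 10.7 and 12.5 CPM, and 36.7 and 23.2 CPM on the 2 plates of cluster 4. *Cacna2d1* had 6 UMIs in the 51 neurons of cluster 1, 5 in the 31 of cluster 5 and 19 in the 28 of cluster 4, of which 13 lay in 2 of the 9 neurons on replicate 2. Without the filter on low counts it was called for any difference across clusters (adjusted p = 7.1e-06), and within replicates 1 and 2 it was not (adjusted p = 0.066). The 42 adult neurons without a numbered cluster held 20 of the 54 adult UMIs of *Cacna2d1* and 32 of the 131 of *Cacna1b*, and had the highest mean of *Cacnb3*, 73.6 ± 31.1 CPM (n = 5). Leaving these neurons out of the stage comparison changed no call of a member.

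At e14.5, *Cacna1h* did not differ between clusters 3 and 4 and clusters 1 and 2 past the threshold. It had 17.3 and 31.9 CPM in cluster 1 and 38.9 and 23.8 CPM in cluster 2 on replicates 1 and 2, and 65.4 and 52.8 CPM in cluster 3. The 5 neurons of cluster 4 on replicate 2 had 208 CPM. The plates of clusters 3 and 4 lie above all those of clusters 1 and 2. UMIs were found in 8 of 41, 26 of 88, 16 of 34 and 5 of 6 neurons of clusters 1 to 4, with exact 95% intervals of 8.82 to 34.9%, 20.3 to 40.2%, 29.8 to 64.9% and 35.9 to 99.6% that cover counting error only. Thinned to 7000 UMIs, the mean shares over plates were 17.6%, 24.6% and 23.2% in clusters 1, 2 and 3, and 75.0% of 4 neurons in cluster 4. Median depths were 8405, 10638, 14520 and 8238.5 UMIs. Clusters 3 and 4 were 1.82 ± 0.46 (log2, SE) above clusters 1 and 2, which missed the threshold (adjusted p = 0.064) and passed it with the plate as a block (1.86 ± 0.47, adjusted p = 0.030). None of the 5 members tested was called by edgeR or by DESeq2, against 1.18% of 4912 genes called by edgeR. At an unadjusted p under 0.05 was 1 of the 5 by each tool, with 558 of the 4912 genes by edgeR and 208 by DESeq2.

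*Cacna1b* had 85.6 ± 6.2 CPM in e14.5 cluster 3 against 51.2 ± 5.8 in cluster 1 and 39.2 ± 1.4 in cluster 2 (SD, n = 2 plates each), a difference that was not called over clusters 3 and 4 (0.84 ± 0.45, log2, SE, adjusted p = 0.47). *Cacnb3* had means of 109 ± 23.6, 123 ± 7.5 and 125 ± 10.4 CPM in clusters 1, 2 and 3. In cluster 4 it had 67.2 CPM on replicate 2 and a UMI in 2 of 6 neurons. At p0 the 9 UMIs of *Cacna1h* lay in clusters 1 and 2.

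The genes whose log2 levels over the 13 plates were most like those of a member, by Pearson's r among 11939 genes, are given as a description. For *Cacna2d3* they were *Dlg2* (r = 0.993) and *Nat8l* (0.991), for *Cacnb4* *Atp11a* (0.987) and *Serpina3n* (0.985), and for *Cacna1h* *Zfp57* (0.989) and *Cacna1e* (0.989). For *Cacna2d1* they were *Sfrp4* (0.970) and *Rps24* (0.965), and *Rpl37rt* (0.954) was among those for *Cacnb3*. The plates of 1 stage share age and reporter, so these values describe likeness over stages and carry no test. *Cacna1a* had *Tbk1* (0.923) and *Sos1* (0.905), *Cacna1b* had *Nrep* (0.935) and *Gnai3* (0.928), and *Cacnb1* had *Slc25a53* (0.856) and *Pelp1* (0.854).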

How the data were processed

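Single tdTomato-sorted DRG neurons were profiled by Plate-seq on 13 plates of 96 wells. The authors aligned the reads to mm10 (GRCm38) with STAR and an NCBI annotation, assigned them to wells by barcode, counted each UMI once, and deposited whole-number UMI counts per gene and well, not normalized. Stage came from the labels, and kept neurons and clusters from the deposited annotation, for which the authors had dropped wells with few genes or glial signal. A filtered table of all plates was not used here. Gene coordinates came from the GENCODE annotation of GRCm38. The 9 members, the family and regulator lists and the alternatives were chosen with earlier results of these data known. The rule for named genes was all members, the called genes of the lists, and the 2 genes most like each member. *Cacna1c*, *Cacna1i* and other list genes given by UMIs were picked after their values were seen. A few genes of the lists and rules are not reported here.

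UMIs were summed per plate, or per adult or e14.5 cluster and plate (at least 2 neurons), and tested by the quasi-likelihood F-test of edgeR 4.0.16 (R 4.3.3) after TMM scaling and filterByExpr (SE is the log2 difference over the square root of F). Alternatives were DESeq2 1.42.0, its size factors, no filter, neurons thinned to 7000 UMIs (20 shallower neurons left out), each plate left out, plate subsets, sums of at least 1 or 4 neurons, the plate as a block, and all wells with at least 2000 genes. Plates pair the cluster sums: deviations of clusters 1 and 5 on the same plate correlated with r between 0.19 and 0.51, against at most 0.13 to 0.43 with another plate, which was higher than the own plate on replicate 3. Shares and permutation tests used Python 3.11.15, scipy 1.17.1, numpy 2.4.6 and pandas 2.3.3, figures matplotlib 3.10.9. Limits for 0 UMIs use 3 counts. Intervals cover counting error only.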

Additional observations from a re-analysis of the deposited data

Results flagged for a closer look

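Single plates stood apart from the rest of their group in 4 of the 54 groups of 4 to 10 plates examined by Dixon's criterion, where chance flags about 1 group in 20. *Cacna2d2* reached 5.79 CPM on p12 replicate 3, against 1.64 to 2.09 CPM on the other 3 plates. It had 1.23 CPM on a single plate of adult cluster 3 and 0.960 CPM on a single plate of adult cluster 5, and 0 on the others, each from 1 UMI. *Cacna2d3* held 93.2% of the alpha2delta UMIs on p12 replicate 1, against 78.8% to 80.4% on the other 3 p12 plates.

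*Cacna1h*, at 0 UMIs in the kept p12 and adult neurons, had UMIs in wells the study left out. In 216 of the left-out p12 wells it had 6 UMIs in 6 wells (0.601 CPM). In 242 of the left-out adult wells it had 3 UMIs in 3 wells (0.373 CPM). The other left-out wells of these stages are not in these counts.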

How the results depend on the processing

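The counts of members called moved as follows. For adult against p12 (1 called) the count was 0 with e14.5 clusters 1 and 2 only, 5 with all wells of at least 2000 genes and 0 to 1 with a plate left out, and in thinned neurons or with p12 replicates 3 and 4 only the 1 called was *Cacna2d3* in place of *Cacna1b*. For p12 against p0 (5) it was 2 in thinned neurons, 4 with p12 replicates 1 and 2 only and 3 to 5 with a plate left out. For p0 against e14.5 (1) it was 2 by DESeq2, with its size factors, with adult replicates 3 to 5 only, with e14.5 clusters 1 and 2 only and with all wells, 3 with either pair of p12 plates, and 1 to 3 with a plate left out. For adult against p0 (6) it was 3 in thinned neurons, 5 by DESeq2, with its size factors and with adult replicates 3 to 5 only, 8 with all wells and 5 to 6 with a plate left out. For any difference across adult clusters (1) it was 3 without the filter, 0 in thinned neurons, with sums of at least 4 neurons and within either plate set, and 0 to 1 with a plate left out. For clusters 1 and 5 against clusters 2 to 4 (1) it was 0 in thinned neurons and within either plate set, and 0 to 1 with a plate left out. For the adult plate sets (1) it was 0 in thinned neurons and 0 to 1 with a plate left out. In the thinned adult cluster and plate-set fits no member passed the filter, so their 0 is not a lost call. For the e14.5 clusters (0) it was 1 without the filter. The alpha2delta make-up gave 0 to 3 calls with a plate left out. No member difference called with the settings of the report changed its sign in an alternative. Differences not called there did, that of *Cacnb1* between adult and p0 without p0 replicate 2 (0.05) among them. Others were *Cacnb1* for p12 against p0 (-1.31 to 0.66) and p0 against e14.5 (-1.40 to 0.56). *Cacna1a* for p12 against p0 (-0.13 to 0.53) and *Cacna2d1* for adult against p12 (-0.67 to 0.47) are further examples. The p12 pairs and the numbered clusters alone were chosen after seeing the data. Leaving out an e14.5 plate was not run for the e14.5 clusters, since the fit then has no residual degrees of freedom, and where clusters 2 and 4 kept 1 sum it was assumed to vary like the others.

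With the plate as a replicate block, 2 members were called across adult clusters, 2 for clusters 1 and 5 against clusters 2 to 4, and 1 for the e14.5 clusters. The genes called rose from 713 to 1181, from 415 to 781, from 351 to 712 (cluster 1 against 5), from 10 to 53 (cluster 4 against 2) and from 58 to 97 (e14.5).

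Counts over all genes moved by over 1.5 times elsewhere. In thinned neurons they were 755, 661, 1538 and 1569 for adult against p12, p12 against p0, p0 against e14.5 and adult against p0 (1687, 2162, 3314 and 4108), 178, 61, 39 and 6 for the adult cluster comparisons, 240 for the plate sets (1413) and 30 for e14.5. Without p0 replicate 1 or 2, p12 against p0 gave 888 and 884, p0 against e14.5 1455 and 1829, and adult against p0 2206 and 2314. Without e14.5 replicate 1 or 2, p0 against e14.5 gave 1964 and 1618. Adult against p12 gave 787 and 898 without p12 replicate 3 or 4, 529 with p12 replicates 1 and 2 only and 3070 with replicates 3 and 4 only. Without the filter the counts were 1543, 555 and 71 for any cluster difference, 1 against 5 and 4 against 2, and 114 for e14.5, where DESeq2 gave 31. Within adult replicates 1 and 2, clusters 1 and 5 against clusters 2 to 4 gave 210 and 4 against 2 gave 59, and within replicates 3 to 5 any difference gave 400 and clusters 1 and 5 against 2 to 4 gave 166. With an adult plate left out, any difference gave 306 to 548, clusters 1 and 5 against 2 to 4 130 to 334, cluster 1 against 5 185 to 297, cluster 4 against 2 0 to 12, and the plate sets 743 to 1437. Fewer genes were tested in thinned neurons and more without the filter; other causes were not tested.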
